A study of Homo sapiens with 6 samples.

Results

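The genes described here are 45 human genes of the mitotic spindle, the spindle assembly checkpoint and cytokinesis, taken by name from a gene table of 54644 loci of RNA sequencing of SKBR3 cells. SKBR3 is an established HER2-amplified breast adenocarcinoma line of luminal epithelial type. The cells were a stable line carrying the empty lentiviral pLVX vector (control) or a stable line carrying pLVX-CTTN, which drives the cDNA of CTTN, the actin-binding protein cortactin, and both lines were selected with puromycin. There were 3 libraries for each line, given as biological replicates. No other treatment or time point was included, and nothing in the sources used here says that the 3 libraries of a line came from independent infections, so the tests measure the spread between libraries of 2 lines.

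In mitosis the kinase CDK1 drives entry, the spindle captures chromosomes at their kinetochores, and the checkpoint holds back the anaphase-promoting complex until every kinetochore is attached. The complex then marks securin for destruction, separase opens the cohesin rings, and midzone motors and a contractile ring divide the cell. Most of these genes are transcribed late in the cell cycle, so their mRNA level in a bulk culture depends on how many cells are in G2 and mitosis as well as on how much each of those cells makes. These 2 quantities cannot be told apart here.

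Promoters of the class are known for CCAAT boxes and for the cell cycle genes homology region (CHR element), whose letters are TTTGAA in most promoters of the class and, in some of them, TTCGAA. Windows of 300 bases (250 before to 50 after the annotated start, RefSeq, GRCh38.p14) matched 39 of the 45 genes. In these, a CHR element of either spelling, on either strand, was present in 31 of 39 (79.5%), against 16.6% of all 27305 promoters of the same length. CCAAT on either strand was present in 28 of 39 (71.8%), against 35.7% of all promoters. Within 50 bases on either side of the start, a CHR element was present in 61.5% of the 39 and in 5.1% of all promoters. These are matches of letters and carry no test. The 4 genes with the highest FPKM among those with a window are shown, because they are the members most abundantly expressed in these cells, with CHR elements and CCAAT boxes of either strand in capitals. The CDK1 window is chr10:60778081-60778380 (plus strand), the TOP2A window chr17:40417847-40418146 (minus strand), the PTTG1 window chr5:160421605-160421904 (plus strand) and the CDC20 window chr1:43358731-43359030 (plus strand).
CDK1: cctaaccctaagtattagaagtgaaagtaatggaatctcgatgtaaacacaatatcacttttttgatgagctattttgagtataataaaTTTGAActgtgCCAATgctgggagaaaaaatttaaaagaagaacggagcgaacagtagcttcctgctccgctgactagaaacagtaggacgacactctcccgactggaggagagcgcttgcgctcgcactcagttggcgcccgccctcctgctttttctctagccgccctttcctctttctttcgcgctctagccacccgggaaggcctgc
TOP2A: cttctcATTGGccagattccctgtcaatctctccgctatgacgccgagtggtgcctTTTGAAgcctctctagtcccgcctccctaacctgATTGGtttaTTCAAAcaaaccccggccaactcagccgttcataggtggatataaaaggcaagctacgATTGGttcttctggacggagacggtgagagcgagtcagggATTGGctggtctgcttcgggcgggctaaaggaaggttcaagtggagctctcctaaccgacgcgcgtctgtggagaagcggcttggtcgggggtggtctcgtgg
PTTG1: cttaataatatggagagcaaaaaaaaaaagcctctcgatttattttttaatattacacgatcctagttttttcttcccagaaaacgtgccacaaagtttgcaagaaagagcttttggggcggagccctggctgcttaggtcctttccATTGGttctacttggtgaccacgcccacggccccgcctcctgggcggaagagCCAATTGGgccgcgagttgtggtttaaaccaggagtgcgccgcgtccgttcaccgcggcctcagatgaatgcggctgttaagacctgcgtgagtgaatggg
CDC20: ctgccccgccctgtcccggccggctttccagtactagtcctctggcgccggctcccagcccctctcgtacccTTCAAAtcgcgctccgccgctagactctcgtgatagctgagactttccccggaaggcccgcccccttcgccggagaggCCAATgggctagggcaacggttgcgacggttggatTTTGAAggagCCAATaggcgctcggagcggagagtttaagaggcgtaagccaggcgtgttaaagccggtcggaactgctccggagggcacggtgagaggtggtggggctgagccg
The CDK1 window held 1 CHR element and 1 CCAAT box, the TOP2A window 2 and 4, and the CDC20 window 2 and 2. The PTTG1 window held 3 CCAAT boxes, of which 2 overlap on opposite strands, and no CHR element. No window was matched for AURKA, BUB3, TTK, UBE2C, BIRC5 and TPX2.

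The libraries held 35695000 to 39318000 scaled fragments in genes. CTTN itself, measured first as the check of the design, had 793.1, 1011 and 520.1 CPM (fragments of a gene scaled to the library total times its TMM factor) in the 3 CTTN libraries and 299.1, 306.5 and 306.3 in the controls. It was higher by 1.35 on the log2 scale (SE 0.22, adjusted p = 0.0249, edgeR). The call was lost with the replicate number as a block (1.298, adjusted p = 0.0563), without CTTN library 1 (adjusted p = 0.123) and without each control (adjusted p of 0.138 to 0.154), while the difference stayed between 1.10 and 1.57 on leaving out any library. Endogenous and vector-derived CTTN mRNA cannot be told apart in these totals. The luminal markers of the line were high in every library, with ERBB2 at 1640 to 1790 FPKM, and ESR1 and PGR were at or below 0.398 FPKM. Of the defining markers of other cell types, PTPRC, CD3E, PECAM1, VWF, DCN and COL3A1 stayed at or below 0.199 FPKM, whereas CD68 (605 to 855), COL1A1 (2.83 to 4.26), TP63 (1.72 to 2.79) and CDH5 (1.43 to 4.45) were detected. The summed endothelial list was 1.55 to 2.17 FPKM in CTTN and 4.12 to 4.62 in control libraries, almost all of it CDH5, and the summed immune list was 619 to 855 and 605 to 632, almost all of it CD68. The basal list summed to 2.43 to 3.39 FPKM in CTTN and 1.97 to 2.23 in control, and the fibroblast list to 2.94 to 4.3 and 3.51 to 4.44. The part of these markers in the results was not tested.

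The 3 CTTN libraries did not resemble each other as the controls did. Across genes, Pearson's r of log2 levels between control libraries was 0.9953 to 0.9963, whereas CTTN library 3 correlated with the controls at 0.9678 to 0.9721, CTTN library 1 at 0.9847 to 0.9865 and CTTN library 2 at 0.99 to 0.9912. CTTN library 1 correlated with library 2 at 0.9912 and with library 3 at 0.9899. The sum of FPKM over genes was 603634 to 624680 in the controls, 605260 in CTTN library 2, 704018 in CTTN library 1 and 852256 in CTTN library 3. By this sum CTTN libraries 1 and 3 stood apart from the other 4 libraries, whereas by correlation library 1 was about as close to library 2 as to library 3. The results below are given for all libraries and again with these libraries separated.

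All 45 genes were detected in every library, with 433 (CDC25C) to 40759 (TOP2A) fragments, and all 45 passed the filter on low counts that left 14433 genes for testing. Levels are compared between genes in FPKM, which is scaled to transcript length. The mean control level ranged from 5.38 FPKM for KIF14 to 194 FPKM for UBE2C, a 36.1-fold range. The median was 34.6 FPKM, and the genes lay between the 41.4th and the 96.8th percentile of the tested genes. In order, UBE2C (194 ± 6.06, SD, n = 3), CDK1 (178 ± 3.21), TOP2A (149 ± 1.95), AURKA (147 ± 4.87), PTTG1 (123 ± 9.12), CDC20 (115 ± 0.607), SMC4 (106 ± 4.42), BUB3 (105 ± 1.51) and NUSAP1 (104 ± 1.75) exceeded 100 FPKM. KIF20B, CDC25C, KIF18A, KIF15 and KIF14 were below 10 FPKM. In 25 of the 44 neighbouring pairs of that order the control libraries overlapped, among them TOP2A with AURKA and SMC4 with BUB3, so those neighbours did not differ beyond their spread. The coefficient of variation of the FPKM over libraries was 2.83% at the median in controls and 11.7% in CTTN.

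For the comparison of CTTN with control, 0 of the 45 genes passed an adjusted p of 0.05 (edgeR quasi-likelihood test, Benjamini-Hochberg over all 14433 genes), against 4.20% of all genes tested (2.29% higher and 1.91% lower in CTTN). With the 1.5-fold limit of the study's rule added the count was also 0, against 3.20% of all genes. At an unadjusted p under 0.05 there were 5 of 45 (11.1%), namely AURKA, PLK1, PRC1, CENPF and ASPM, against 30.2% of all genes, and DESeq2 called 1 gene (2.22%), PRC1, against 13.8% of all genes. The log2 fold change was above 0 for 14 genes and below 0 for 31, from -0.56 for KIF14 to 0.40 for PTTG1. Its median was -0.0931, against 0.0108 over all genes tested. Without CTTN library 3 the fold changes ran from -0.315 to 0.196, with 13 above 0, 32 below 0 and a median of -0.0552. In that fit 0 of the 45 passed, against 8.54% of all genes. In FPKM, 18 genes were higher and 27 lower in the mean of CTTN, since PRC1, KIF2C, TTK and KIF15 lay below 0 in counts and above 0 in FPKM. The 95% interval lay within 1.5-fold in both directions for 29 genes, reached past 1.5-fold lower for 12 and past 1.5-fold higher for 4. The interval of KIF14 also reached past 2-fold lower.

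In CPM, the 3 CTTN libraries were all above the 3 controls for 5 genes (11.1%, against 19.3% of all genes), UBE2C, AURKA, PLK1, CENPA and CDC25C. They were all below for 11 genes (24.4%, against 19.4% of all genes), ANLN, ECT2, PRC1, BUB1B, CENPF, NCAPG, KIF4A, ASPM, ESPL1, KIF11 and KIF15. For the other 29 genes the groups overlapped. In FPKM the genes divided otherwise. For example, all 3 CTTN libraries of CDK1 lay below the controls, whereas the groups of PRC1, ECT2, BUB1B and CENPF overlapped. The SD of log2 CPM was larger in CTTN than in control for 43 genes (95.6%, against 81.2% of all genes). The exceptions were TPX2 and NCAPG. Median SDs were 0.193 in CTTN and 0.0526 in control, against 0.233 and 0.0775 over all genes tested.

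**Figure D1:**
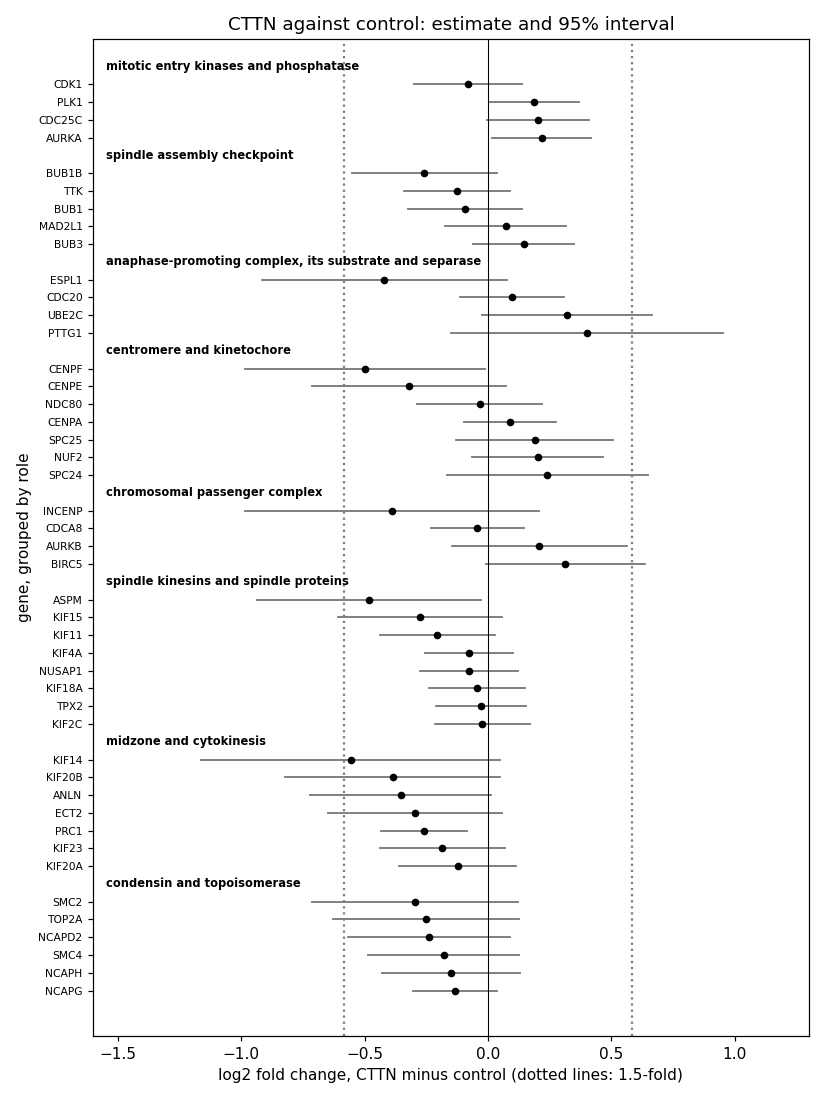
Log2 fold change of each gene, CTTN minus control, with its 95% interval from the edgeR fit (3 libraries a group), grouped by role. All genes of the spindle, midzone and condensin groups lie left of 0 in these counts (in FPKM, KIF2C, KIF15 and PRC1 lay above 0, and with transcript length adjusted the spindle and condensin groups lay on both sides), the other groups lie on both sides, and the interval of KIF14 is the widest.

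Among the mitotic entry kinases and the phosphatase CDC25C, which activates CDK1, 3 of 4 log2 fold changes were above 0 and 0 passed the test. CDK1, the kinase of mitotic entry, had 226, 199 and 241 CPM in CTTN libraries 1 to 3 and 235, 242 and 228 in the controls. CTTN library 2 lay below the controls, library 3 among the values of the controls and library 1 just under them, and the difference was -0.08 (log2, SE 0.094, adjusted p = 0.55). In FPKM its CTTN libraries had 154, 158 and 144 and the controls 177, 175 and 181, so that all CTTN libraries lay below the controls, with a difference of -0.23 in log2(FPKM + 1) (limma, adjusted p = 0.182). AURKA, the centrosomal kinase of spindle assembly, had 329, 299 and 340 CPM in CTTN and 274, 292 and 266 in control. All CTTN libraries lay above the controls, and the difference of 0.22 (SE 0.085, 95% interval 0.018 to 0.417) had an adjusted p of 0.147. PLK1, which acts from centrosome maturation to cytokinesis, had a difference of 0.19 (adjusted p = 0.157), and CDC25C of 0.20 (adjusted p = 0.169). For AURKA, 12 isoforms had at least 1 FPKM in controls and the leading one held 21.2% of the gene's FPKM, whereas 1 isoform of PLK1 held 96.3%.

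Of the 5 spindle assembly checkpoint genes, BUB3 and MAD2L1 lay above 0 and BUB1B, TTK and BUB1 below 0, and 0 passed the test. BUB3, a subunit of the mitotic checkpoint complex and the most abundant gene of the group at 105 FPKM, had 184, 169 and 201 CPM in CTTN and 167, 169.5 and 164 in control. Its groups overlapped through CTTN library 2, and the difference was 0.15 (SE 0.087, adjusted p = 0.268). BUB1B, which encodes the checkpoint protein BubR1, had 132, 156 and 111 CPM in CTTN and 158, 159.8 and 159 in control. The controls differed by less than 2 CPM, and CTTN libraries 1 and 3 lay well below them while library 2 lay just under them. The difference was -0.26 (SE 0.126, adjusted p = 0.201). The BUB1B locus, within chr15:40161023-40277487, merges BUB1B with its neighbour PAK6 and their readthrough, and transcripts of BUB1B held 93.8% of its FPKM in controls and 93.2% in CTTN. MAD2L1, the Mad2 protein that binds CDC20, had a difference of 0.07, BUB1, a checkpoint kinase of the kinetochore, of -0.09, and TTK, the Mps1 kinase, of -0.12.

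The anaphase group held CDC20, an activator of the anaphase-promoting complex, UBE2C, its ubiquitin-conjugating enzyme, PTTG1, the securin it marks, and ESPL1, the separase that securin inhibits. UBE2C had 161, 142 and 212 CPM in CTTN and 139, 140.0 and 134 in control. All CTTN libraries were above the controls, library 2 by only 0.05 on the log2 scale and library 3 by 0.62. The difference was 0.32 (SE 0.146, adjusted p = 0.183). PTTG1, singled out here after its values were seen because its fold change was the highest of the 45, had 102, 74.6 and 150 CPM in CTTN and 90.1, 81.2 and 75.5 in control. CTTN library 2 was lower than all 3 controls, and the difference was 0.40 (SE 0.234, adjusted p = 0.258). Fragments of PTTG1 can also match its near-identical copies elsewhere in the genome, so its level is uncertain. ESPL1 had 88.3, 113.0 and 59.4 CPM in CTTN and 113.4, 114 and 121 in control. CTTN library 2 was within 1 CPM of the lowest control, and the difference was -0.42 (SE 0.211, adjusted p = 0.211). Securin and separase, with transcripts of 762 and 5727 bases, had the opposite sign of fold change with all libraries. They were at -0.14 and -0.04 in CTTN library 2 alone. With length adjusted they were at -0.0034 (SE 0.074) and -0.12 (SE 0.076), so that securin had no clear sign. CDC20 had a difference of 0.10 (adjusted p = 0.455).

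Of the 7 centromere and kinetochore genes, 4 were above 0 and 3 below 0, and 0 passed the test. CENPA, the histone H3 variant of the centromere, had 94.6, 90.3 and 102 CPM in CTTN and 89.2, 90.2 and 90.2 in control. The groups were separated by less than 0.1 CPM at CTTN library 2, and the difference was 0.09 (SE 0.079, adjusted p = 0.434). The CENPA locus also takes in SLC35F6, and transcripts of CENPA itself held 71.7% of its FPKM in controls and 75.3% in CTTN, so the value of the locus is uncertain for CENPA. CENPF, a large kinetochore protein of 7941 bases of transcript, had 262, 356 and 191 CPM in CTTN and 360.1, 398 and 383 in control. CTTN library 2 lay just under the lowest control and library 3 was the lowest of the 6, and the difference was -0.50 (SE 0.207, 95% interval -0.98 to -0.01, adjusted p = 0.159). It was -0.75 without CTTN library 2, -0.10 in CTTN library 2 alone, -0.13 in log2(FPKM + 1) and -0.08 with transcript length adjusted. CENPE, the kinesin that moves chromosomes to the spindle equator, had a difference of -0.32 with 8048 bases. The 4 subunits of the Ndc80 complex, which binds microtubules at the outer kinetochore, had differences of -0.03 (NDC80), 0.20 (NUF2), 0.24 (SPC24) and 0.19 (SPC25). Their FPKM were close to each other, the highest of the 4 exceeding the lowest 1.29-fold to 1.44-fold in controls and 1.33-fold to 1.59-fold in CTTN.

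In the chromosomal passenger complex, AURKB is the kinase, INCENP the scaffold, and BIRC5 (survivin) and CDCA8 (borealin) place it at the centromere. BIRC5 and AURKB lay above 0, INCENP and CDCA8 below 0, and 0 passed the test. BIRC5 had 196, 164 and 239 CPM in CTTN and 161, 166 and 155 in control. Libraries 1 and 3 were above all controls and library 2 among them, and the difference was 0.31 (SE 0.138, adjusted p = 0.172). INCENP had 60.5, 88.9 and 40.5 CPM in CTTN and 78.3, 83.4 and 86.7 in control. CTTN library 2 was higher than every control and library 3 was the lowest of the 6, which gave an SD of log2 CPM of 0.567, close to the 0.572 of KIF14, and a difference of -0.39 (SE 0.254, adjusted p = 0.303). In FPKM, the ratio of the highest to the lowest subunit was 3.44 to 3.67 in controls, 3.55 in CTTN library 2, 4.32 in library 1 and 6.28 in library 3, where INCENP replaced CDCA8 as the lowest. AURKB had a difference of 0.21 and CDCA8 of -0.04.

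All 8 spindle kinesins and spindle proteins lay below 0 in counts with all libraries, while KIF15 and KIF2C lay above 0 in FPKM and 5 of the 8 (KIF4A, TPX2, KIF18A, KIF11 and KIF2C) lay above 0 with transcript length adjusted. In CTTN library 2 alone all 8 lay below 0, with a median of -0.0783. With all libraries the differences ran from -0.02 for KIF2C to -0.48 for ASPM, with a median of -0.0765, and 0 passed the test. NUSAP1, a protein that bundles spindle microtubules and the most abundant of the group at 104 FPKM, had 224, 222 and 197 CPM in CTTN and 223, 236 and 219.7 in control. Its groups overlapped, and the difference was -0.08 (SE 0.085, adjusted p = 0.536). ASPM, a protein of the spindle poles with the longest transcript of the 45 at 8488 bases, had 114, 153 and 85.8 CPM in CTTN and 155, 171 and 166 in control. All CTTN libraries lay below the controls, library 2 by the smallest margin, and the difference was -0.48 (SE 0.194, 95% interval -0.94 to -0.03, adjusted p = 0.152). It was -0.72 without CTTN library 2, -0.10 in CTTN library 2 alone, -0.11 in log2(FPKM + 1) and -0.04 with transcript length adjusted. KIF11, the motor that separates the spindle poles, had a difference of -0.21 (adjusted p = 0.198), and KIF15, a motor that can share this task, of -0.28 (adjusted p = 0.217). TPX2, an activator of AURKA, had a difference of -0.03, KIF18A, which limits microtubule length, of -0.04, KIF4A, a chromosome-bound motor, of -0.08, and KIF2C, a microtubule depolymerase, of -0.02. KIF4A shares sequence with a retrocopy, which leaves its count uncertain.

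All 7 midzone and cytokinesis genes were below 0 in counts, with a median of -0.296, and 0 passed the test. They were also below 0 with transcript length adjusted, whereas PRC1 was above 0 in FPKM and KIF20A in CTTN library 2 alone. KIF14, a kinesin of the midbody, had the lowest fold change of the 45. It had 25.1, 36.8 and 16.6 CPM in CTTN and 38.2, 40.7 and 36.5 in control. CTTN library 2 lay within the controls, and library 3 was less than the other 5 libraries, for a difference of -0.56 (SE 0.257, adjusted p = 0.186). ANLN, the anillin scaffold of the contractile ring and the most abundant of the group at 96.0 FPKM, had 300.4, 358 and 231 CPM in CTTN and 359, 397 and 380.3 in control. All CTTN libraries lay below the controls, library 2 by under 1 CPM, and the difference was -0.35 (SE 0.156, adjusted p = 0.175). PRC1, the protein that cross-links antiparallel microtubules of the midzone, is described after its values were seen because it had the lowest adjusted p of the 45. It had 136, 138 and 129 CPM in CTTN and 166, 160.2 and 157 in control. The CTTN libraries lay close together and all below the controls, with a difference of -0.26 (SE 0.074, 95% interval -0.43 to -0.09, adjusted p = 0.089). Its locus, chr15:90966038-91022603, merges PRC1 with VPS33B and AC068831.7, and transcripts of PRC1 held 86.6% of the FPKM in controls and 88.4% in CTTN. In FPKM the ratio of PRC1 was above 1 (0.06 on the log2 scale). ECT2, which activates RhoA at the cleavage site, had a difference of -0.30, KIF23, a centralspindlin subunit, of -0.18, and KIF20A and KIF20B, kinesins of the midzone, of -0.12 and -0.39.

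All 6 genes of condensin I and topoisomerase, which compact and untangle chromosomes, were below 0 with all libraries, whereas 4 of the 6 were above 0 with transcript length adjusted (NCAPG, NCAPD2, SMC4 and TOP2A) and 4 in CTTN library 2 alone (NCAPH, SMC2, SMC4 and TOP2A). The median with all libraries was -0.209, and 0 passed the test. TOP2A, the DNA topoisomerase of dividing cells, had 816, 951 and 602 CPM in CTTN and 919.8, 971 and 926 in control. CTTN library 2 lay within the controls and libraries 1 and 3 below them, and the difference was -0.25 (SE 0.16, adjusted p = 0.295). SMC2, a core condensin subunit, had 72.3, 86.2 and 51.5 CPM in CTTN and 82.2, 90.9 and 84.5 in control. Library 2 was again within the controls, and the difference was -0.29 (SE 0.177, adjusted p = 0.271). The partner of SMC2, SMC4, had a difference of -0.18, and the condensin I subunits NCAPD2, NCAPH and NCAPG differences of -0.24, -0.15 and -0.13. SMC4 was 6.46 to 7.63 times as high as SMC2 in FPKM in controls and 6.99 to 8.63 times in CTTN, so the 2 partners were unequal at the mRNA level in every library.

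Transcript length moved with the fold change across these genes. Length is the mean over all isoforms of a gene's locus, weighted by their FPKM in controls, and ranged from 762 bases for PTTG1 to 8488 for ASPM. For the merged loci of PRC1, CENPA and BUB1B it also counts transcripts of neighbouring genes. PRC1 had 2252 bases by this mean, while its leading isoform (32.2% of the locus in controls) had 728. The length and the length-adjusted fold change of PRC1 are therefore uncertain. Spearman's rho of log2 fold change with length was -0.832 over the 45 genes and -0.558 over all 14433 genes, with no p given, since the points share libraries. Of the 10 genes under 2 kb, 8 lay above 0, and their median was 0.197, against 0.259 for all genes of that length. The 13 genes of 2 to 3 kb had a median of -0.0226, against 0.0266. All 13 genes of 3 to 5 kb lay below 0 (KIF15 above 0 in FPKM), with a median of -0.18 against -0.167, and so did all 9 genes over 5 kb, with a median of -0.387 against -0.357. Within each length class the median of the mitotic genes was thus within 0.1 of that of all genes.

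By library, rho with length was -0.823 in CTTN library 1, -0.0556 in library 2 and -0.852 in library 3. The values over all genes were -0.527, -0.0558 and -0.663. Deviations from the control mean ran from -0.62 to 0.31 (log2) in library 1, from -0.24 to 0.12 in library 2 and from -1.21 to 0.87 in library 3. Library 1 lay between libraries 2 and 3 for 39 of the 45 genes. In library 2, 42 of the 45 genes were within 0.2 of the control mean, against 24 in library 1 and 10 in library 3. The control libraries also differed among themselves in this respect, control 1 having a rho of -0.636 and controls 2 and 3 of 0.452 and 0.336 against the mean of the 3. Fragmentation, RNA integrity and library preparation of single libraries were not tested, and length and CTTN cannot be told apart in libraries 1 and 3.

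Without CTTN library 2, 26 of the 45 genes passed (57.8%, against 47.2% of all genes), 9 higher (23.0% of all genes) and 17 lower (24.2% of all genes). This fit leaves out the CTTN library closest to the controls and keeps libraries 1 and 3. Its calls and p-values depend on that choice of libraries. The 9 higher genes were UBE2C, AURKA, PTTG1, PLK1, BIRC5, AURKB, SPC25, NUF2 and SPC24, all of at most 2509 bases. The log2 fold changes ran from -0.89 for KIF14 (adjusted p = 0.00342, edgeR) to 0.61 for PTTG1 (adjusted p = 0.0107), and 7 genes, 1 higher and 6 lower, also passed the 1.5-fold limit, against 21.3% of all genes. With CTTN library 2 alone against the 3 controls, where its spread is assumed to be that of the controls, 2 of 45 passed (4.44%, against 14.1% of all genes). These were CDK1 at -0.24 (adjusted p = 0.0116) and PRC1 at -0.23 (adjusted p = 0.0209), and fold changes ran from -0.24 to 0.12. With the dependence on length removed within each library, rho with length was 0.0784 and 2 of 45 passed (4.44%, against 19.0% of all genes), PRC1 at -0.31 (adjusted p = 0.00829, edgeR) and CDK1 at -0.22 (adjusted p = 0.0125). The offsets were fitted to these same data and taken as known, so a low rho was built in. The spread they absorb leaves the error, the SE of CDK1 going from 0.094 to 0.046. The PRC1 value also rests on a length averaged over its merged locus. CDK1 and PRC1 were the genes called in both fits, each lower in CTTN. CTTN library 2 enters both fits, which are not independent. Without it CDK1 was at -0.01 (adjusted p = 0.901), so that its lower value in unadjusted counts rested on library 2, whereas in FPKM it was lower in all 3 CTTN libraries. In these 4 fits on counts PRC1 ran from -0.23 to -0.31, although it was at 0.06 in FPKM (71.3, 59.7 and 86.2 in CTTN and 76.0, 67.3 and 64.9 in control), whereas KIF14 went from -0.89 to -0.06.

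The isoform table held 511 isoforms of the 45 genes, of which 382 matched an annotated transcript and 129 were assembled combinations. Of 235 tested, 0 passed an adjusted p of 0.05 (lowest 0.747, edgeR), as did 0.00% of all 58275 isoforms tested, and 7 (2.98%) had an unadjusted p under 0.05, against 6.24% of all. KIF11 had a single isoform and SMC4 had 36. The leading isoform of a gene is the one with the highest mean FPKM in controls, a choice that by itself favours lower shares in CTTN. It held over 50% of the locus in controls for 39 genes. For the 10 genes whose leading isoform exceeded 5 kb, its share was below all controls in 8 genes in CTTN library 1, in 3 in library 2 and in 8 in library 3, with median differences of -16.7, 0.98 and -40.8 percentage points. Among all 2250 tested genes with a leading isoform of that length, the share was below all controls in 47.2%, 27.3% and 60.0% of genes, with median differences of -3.58, 0 and -15.85 percentage points. ASPM, for example, had 60.7%, 68.4% and 70.1% in the controls and 34.2%, 67.6% and 12.5% in CTTN libraries 1 to 3. KIF20B had 90.1%, 92.4% and 97.2% in the controls and 43.1%, 96.5% and 14.2% in CTTN. TOP2A had 95.7%, 96.4% and 96.8% in the controls and 95.01%, 97.02% and 53.1% in CTTN. In each, CTTN library 3 was the lowest and library 2 stayed with the controls. For the 12 genes whose leading isoform was under 2 kb the median differences were 3.25, -1.42 and -0.32 percentage points, against 0 in each library over all genes of that length. The share was above all controls in 9, 3 and 5 of the 12, against 28.2%, 18.8% and 33.1% of all genes of that length.

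A list of 119 other mitotic genes, which holds none of the 45, gave the setting. Of these, 1 passed the test, CDC25B, a phosphatase that activates CDK1 (0.84% of the list, against 4.20% of all genes), and DESeq2 called 15 (12.6%, against 13.8%). It had 300.4, 294 and 302 CPM in CTTN and 236, 233 and 233 in control, with a difference of 0.35 (SE 0.07, adjusted p = 0.041). Its CTTN libraries lay close together and did not overlap the controls, but the count was 0 with column totals only, with no filter on low counts, with the replicate block, with both limma fits, without CTTN library 1 and without each control. At an unadjusted p under 0.05 there were 28 of the 119 (23.5%, against 30.2% of all genes), and the median difference was -0.0403, with 56 genes above 0 and 63 below. Of 45 genes of G1 and S phase, 0 passed, 9 had an unadjusted p under 0.05 (20%, against 30.2% of all genes), DESeq2 called 3 (6.67%, against 13.8%), and the median was 0.0176.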

How the data were processed

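Poly(A) mRNA of 6 SKBR3 libraries was made with a TruSeq stranded kit and sequenced in pairs. Per the submitters' processing notes, bcl2fastq 2.20.0, Trimmomatic, STAR and Cufflinks were used with GRCh38, whereas the study's methods name Cutadapt and hg19. The loci overlapped the RefSeq GRCh38 position for all 45 genes and the GRCh37 position for 9, so GRCh38 was used. The strand setting of the counting is not given in the sources used here. The deposited estimated counts are fragment counts that the authors' Cuffnorm step divided by an internal scale, a ratio deposited for each library. Multiplied back, all values under 1000 fragments were whole within 0.02. FPKM values were deposited as normalized by the authors. Isoform tables are of the same kind. The 45 genes, the other gene lists and the role groups were chosen with earlier results of these data known.

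Counts were rounded and tested with edgeR 4.0.16 (R 4.3.3, quasi-likelihood, TMM, filterByExpr) across all genes, with Benjamini-Hochberg adjustment. CPM is TMM-scaled. DESeq2 1.42.0 and limma 3.58.1 on log2(FPKM + 1 or 0.1) served as alternatives, and the code was tested on simulated data. Intervals (95%) cover the spread between libraries. Values by library are given for the most abundant gene and the gene with the largest absolute fold change of each role group, and for genes that passed. PTTG1 and PRC1 were added after their values were seen. Control columns could be matched to the control group. Library numbers of the controls were taken from the deposited sample table, since the column names in the control descriptions differ from it. Transcript length was removed with lowess offsets (span 0.5) for each library. Coding-sequence and start-site tables were not used.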

Additional observations from a re-analysis of the deposited data

How the results depend on the processing

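The count of 0 of 45 genes held with RLE factors, column totals only, no filter on low counts, both limma fits on FPKM, whole fragments recovered, and only the control columns named in the labels, which is the same fit as leaving out control library 1. It was 1 with DESeq2, 2 with length adjusted, 2 with CTTN library 2 alone, and 0 to 26 when 1 library was left out, the 26 coming from leaving out CTTN library 2. With the 1.5-fold limit it was 0 to 7 on leaving out 1 library, again 7 without CTTN library 2, and 0 in every other fit. The length-adjusted fit, CTTN library 2 alone and the recovered fragments were chosen after seeing the data. Of the genes given by library, UBE2C was at -0.040 with length adjusted, both INCENP (0.10) and SMC2 (0.0057) were above 0 in CTTN library 2 alone, TOP2A at 0.055 with length adjusted and 0.019 in library 2 alone, PTTG1 at -0.0034 and -0.14 in the same fits, and PRC1 at 0.06 in the ratio of mean FPKM, each the reverse of its sign with all libraries. The values of UBE2C and PTTG1 with length adjusted, and of SMC2 and TOP2A in library 2 alone, were smaller than their SE. Their signs are uncertain.

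The other mitotic genes called were 1 with all libraries, 0 with column totals only, with no filter on low counts, with the replicate block, with both limma fits and with the named control columns, 15 with DESeq2 (12.6% of the list, against 13.8% of all genes), 22 with length adjusted (18.5%, against 19.0%), 11 in CTTN library 2 alone (9.24%, against 14.1%), and 0 to 61 on leaving out 1 library (61 being 51.3%, against 47.2%). The G1/S genes called were 0 with all libraries, 1 with RLE factors, 1 with recovered fragments, 3 with DESeq2 (6.67%, against 13.8%), 10 with length adjusted (22.2%, against 19.0%), 3 in CTTN library 2 alone (6.67%, against 14.1%), and 0 to 19 on leaving out 1 library (19 being 42.2%, against 47.2%). CTTN stayed higher in every fit, at 1.298 with the replicate block (adjusted p = 0.0563, edgeR), 1.33 with the named control columns (adjusted p = 0.138), and 1.10 to 1.57 on leaving out 1 library, where its adjusted p missed 0.05 without CTTN library 1 and without each control. The cause was not tested.

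Over all genes, 606 passed, against 1900 with DESeq2, 109 with the replicate block, 185 and 180 with limma, 29 with the named control columns, 2736 with length adjusted, 2128 in CTTN library 2 alone, and 15 to 6953 on leaving out 1 library. Libraries of the same number deviated together with r of 0.0285, 0.0791 and -0.19, and those of unlike number with r of -0.257 to 0.234. These values show no pairing by number but cannot exclude one. The replicate block changed no call of the 45 genes, whose lowest adjusted p was 0.142 with it (edgeR). No isoform of the 45 genes passed in any alternative. Each of the 45 genes had 433 or more fragments in every library. Their median SD of log2 CPM was 0.193 in CTTN and 0.0526 in control, against 0.233 and 0.0775 over all genes tested.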
